A study of Homo sapiens with 6 samples.

Results

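The genes described here make and attach SUMO, the small ubiquitin-like modifier. There were 8 of them among the 58288 genes of the table: SUMO2 and SUMO3 (2 modifiers), SAE1 and UBA2 (the subunits of the activating enzyme) and PIAS1, PIAS2, PIAS3 and PIAS4 (ligases). They were chosen by name, as rows of the expression table that carry the Ensembl identifier of the gene, and not by any measured value. All 8 had a mean of at least 1 FPKM (fragments per kilobase of transcript, scaled to the mapped fragments of the library) and were tested.

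SUMO is joined to lysines of target proteins by a relay of enzymes. The activating enzyme E1, a dimer of SAE1 and UBA2, charges the processed modifier, a conjugating enzyme takes it over, and E3 ligases such as the PIAS proteins help to pass it to the target. Proteases of the SENP family trim the precursors and remove SUMO again. MYB, a transcription factor of blood progenitors, is itself both conjugated to SUMO and able to bind it.

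All libraries are of K562, an erythroleukemic line of human origin. Its cells had been made into single cell clones with a stable MYB transgene that carries a 3xFLAG and an HA tag. 2KR-MYB has arginine in place of the lysines that take up SUMO, and ANAA-MYB has a mutated SUMO-interaction motif. Both groups received the siRNA that the labels call si2992, directed at an untranslated stretch of the endogenous MYB transcript that the transgenes lack. The cells were kept under 200 µg/ml G418 and harvested 24 h after the siRNA. There were 3 libraries of the 2KR-MYB rescue and 3 of the ANAA-MYB rescue, and each rescue was 1 clone, so the mutant and the clone cannot be told apart. The comparison asks whether loss of SUMO conjugation and loss of SUMO binding by MYB leave the transcripts of the SUMO machinery at different levels. Values of 12 other columns, of samples outside the 6 labelled ones, were not used, so nothing here is set against untreated, knockdown or wild-type MYB cells.

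None of the 8 SUMO genes passed the test between the rescues at the threshold of 0.01. In limma on log2(FPKM + 1), 0 of the 8 passed, where 13.0% of the 12634 tested genes did. At an adjusted p under 0.05, SUMO3 was the 1 gene of 8 to pass, against 26.9% of all tested genes. Which gene passed 0.05 turned with the scaling: after upper quartile scaling or quantile normalization SUMO3 did not (limma adjusted p = 0.086 and 0.13) and SAE1 did (0.049 and 0.032). Without such scaling, SUMO3 was also the 1 gene with an unadjusted limma p under 0.05, against 39.4% of all tested genes. The 3 libraries of one rescue lay fully above or below the 3 of the other for SUMO3, SAE1 and PIAS4, which is 3 of 8 genes, against 44.9% of all tested genes. The median size of the log2 fold change was 0.037 over the 8 genes and 0.14 over all tested genes. All 8 intervals of 95% lay between -0.30 and 0.18 on the log2 scale, or between 0.811-fold and 1.14-fold.

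Facts of the libraries bear on how such values can be read. Library totals ran from 579920 to 633662 summed FPKM, and the 8 SUMO genes together made up 544 to 565 FPKM of each library. Every pair of libraries within a rescue was closer (lowest Pearson r across genes 0.983) than any pair between rescues (highest 0.973). The depth behind the values is unknown, and the number of replicates limits the precision. Markers of K562 were present: the globin gene HBG2 was at 767 to 1161 FPKM, and all 10 erythroid markers examined had a mean of at least 10.3 FPKM, while 7 of 8 markers of other blood cells had a mean under 1 FPKM and MS4A1 was listed at 0 in every library. Of these, 4 of the 10 erythroid markers passed the threshold of 0.01, among them KLF1, GATA1 and TFRC, which were lower in the 2KR-MYB rescue. Whether the state of the cells has a part in the results on SUMO genes was not tested. In bulk RNA, a change in the share of cells of one kind and a change of RNA per cell cannot be told apart. MYB, whose row may include transcripts of the rescue construct, had 69.0, 61.2 and 67.5 FPKM with 2KR-MYB and 53.6, 55.3 and 62.0 FPKM with ANAA-MYB (limma adjusted p = 0.062). The log2 fold change of MYB was 0.21, and its limma adjusted p ran from 0.026 to 0.17 over the alternative settings.

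The modifiers SUMO2 and SUMO3 are close relatives whose coding sequences matched at 81.4% of 285 aligned positions (GENCODE canonical transcripts). Since they are so alike, the letters show how far sequencing reads can tell them apart. The 90 coding bases around the longest run that both transcripts share are given here for each gene, with that run in capitals, 5′ to 3′.
SUMO2: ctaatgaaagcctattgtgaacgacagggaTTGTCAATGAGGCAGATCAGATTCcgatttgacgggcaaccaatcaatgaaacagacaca
SUMO3: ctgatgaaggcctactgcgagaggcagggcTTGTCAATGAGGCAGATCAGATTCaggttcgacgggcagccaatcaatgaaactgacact
These are coding bases 127 to 216 of SUMO2 and 124 to 213 of SUMO3, counted from the A of the start codon. The shared run is 24 bases long, and over the whole transcripts no longer run was shared. No stretch of 150 bases, the read length, was the same in a transcript of SUMO3 and in one of any other gene. In SUMO2, 0.895% of such windows (27 of 3017) also occurred in the annotated pseudogene SUMO2P1. The table held 19 SUMO2 pseudogenes, of which 15 were listed at 0 in all 6 libraries, and all 19 together reached at most 1.20 FPKM in a library. Of the windows of the SAE1, UBA2 and PIAS transcripts, 0 occurred in a transcript of another gene. Only exact matches on the same strand were counted, for the canonical transcript of each SUMO gene. Reads that an aligner places with mismatches are not covered by these counts.

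The genes part at the 3′ end of the coding sequence, which encodes the tail that SENP proteases remove to bare a pair of glycines. The last coding bases are given with the codons of these glycines in capitals.
SUMO2: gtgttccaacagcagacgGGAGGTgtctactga
SUMO3: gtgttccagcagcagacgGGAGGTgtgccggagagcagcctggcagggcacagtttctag
SUMO2 has 2 codons between the glycines and the stop codon, and SUMO3 has 11.

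SUMO2 was more abundant than SUMO3 in every library. SUMO2 (ENSG00000188612, GRCh38 chromosome 17, 75165586 to 75182959) was measured at 127, 127 and 118 FPKM with 2KR-MYB and at 117, 127 and 116 FPKM with ANAA-MYB. The rescues overlapped, and the highest library of each was at nearly the same level. The difference of 0.046 on the log2(FPKM + 1) scale (95% interval -0.077 to 0.17, limma adjusted p = 0.56) was smaller than the spread between replicates.

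SUMO3 (ENSG00000184900, chromosome 21, 44805617 to 44818062) stood at 74.0, 71.3 and 74.2 FPKM with 2KR-MYB and at 81.1, 88.5 and 79.95 FPKM with ANAA-MYB. All 3 libraries with 2KR-MYB lay below the 3 with ANAA-MYB, and the second ANAA-MYB library stood highest. The means were 73.2 ± 1.61 and 83.2 ± 4.66 FPKM (SD, n = 3 each). The log2 fold change was -0.18 (standard error 0.052, limma adjusted p = 0.035), or 0.881-fold with a 95% interval of 0.811 to 0.957, and did not pass 0.01. Its adjusted p was 0.034 at the lowest and 0.13 at the highest among the alternative settings. It was above 0.05 without a filter (0.068), with the replicate number as a block (0.058) and without any library but the third of ANAA-MYB (0.056 to 0.11). In size this log2 fold change lay at percentile 60.9 of all tested genes. By the exact two-sided permutation test, which with 3 libraries against 3 cannot give a p below 0.1, p was 0.1.

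**Figure D1:**
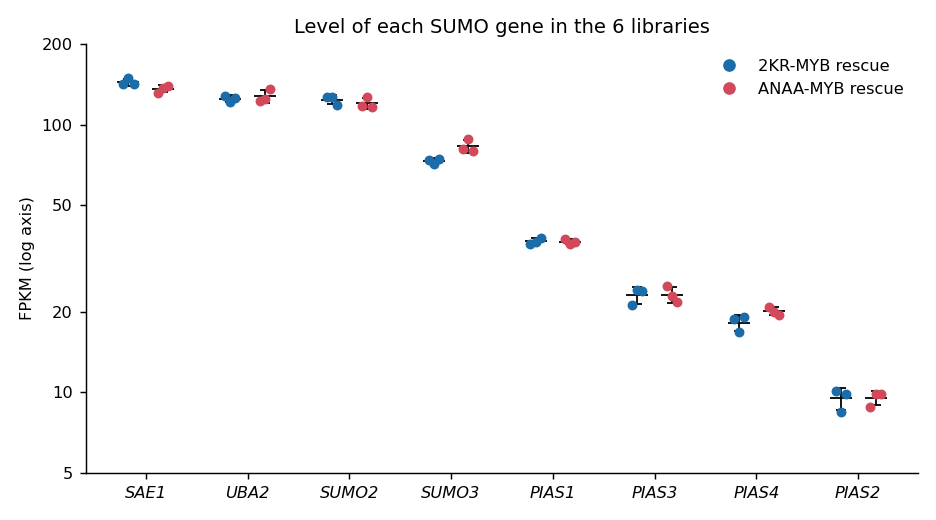
FPKM (log axis) of the 8 SUMO genes, ordered by level. Points are the 3 libraries of each rescue with the mean and 1 SD, and the 2KR-MYB libraries of SUMO3 (71.3 to 74.2 FPKM) lie below its ANAA-MYB libraries (79.95 to 88.5 FPKM), while the rescues overlap for SUMO2, UBA2, PIAS1, PIAS2 and PIAS3.

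The ratio of SUMO2 to SUMO3 FPKM within a library does not depend on scaling between libraries. It was 1.71, 1.78 and 1.59 in the 2KR-MYB rescue and 1.44, 1.43 and 1.45 in the ANAA-MYB rescue. All 2KR-MYB libraries lay above all ANAA-MYB libraries, and the ANAA-MYB values were nearly equal. The difference in the log2 ratio was 0.23 (exact two-sided permutation test, n = 3 each, p = 0.1, the smallest possible). In other words, SUMO3 gave 37.1 ± 1.29% of the summed SUMO2 and SUMO3 FPKM with 2KR-MYB and 40.9 ± 0.160% with ANAA-MYB (SD, n = 3 each). The sum itself, a measure of how much transcript for this pair of modifiers was present, was 197 ± 4.31 against 203 ± 10.6 FPKM and overlapped between the rescues.

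The subunits of the activating enzyme were the most abundant of the 8 transcripts, together with SUMO2. SAE1 (ENSG00000142230, chromosome 19, 47130835 to 47210636), the smaller subunit, had 141, 149 and 141 FPKM with 2KR-MYB and 132, 137 and 140 FPKM with ANAA-MYB. The 3 libraries with 2KR-MYB were the higher ones, but the gap between the lowest of them (141.2 FPKM) and the highest with ANAA-MYB (139.5 FPKM) was smaller than the spread within either rescue. The log2 fold change of 0.078 (95% interval -0.027 to 0.18, limma adjusted p = 0.24) did not pass. It was 0.12 after upper quartile scaling and 0.13 after quantile normalization (adjusted p of 0.049 and 0.032), with adjusted p from 0.032 to 0.52 over the alternatives.

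UBA2 (ENSG00000126261, chromosome 19, 34428381 to 34471251), the subunit that holds the catalytic cysteine, stood at 128, 121 and 126 FPKM with 2KR-MYB and at 122, 124 and 136 FPKM with ANAA-MYB. The third ANAA-MYB library was the highest and the other libraries of both rescues were mixed in order. The difference of -0.028 (95% interval -0.15 to 0.097, limma adjusted p = 0.74) turned to the other sign, at 0.020, without that library. UBA2 was below SAE1 in each of the 6 libraries, with a ratio of 0.907, 0.815 and 0.891 in the 2KR-MYB rescue and 0.930, 0.904 and 0.977 in the ANAA-MYB rescue. The ratios overlapped, and the difference in the log2 ratio was -0.11 (exact two-sided permutation test, n = 3 each, p = 0.2).

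Both subunits stood above 6 genes for activating enzymes of other ubiquitin-like modifiers. UBA1, the main activating enzyme of ubiquitin itself, had 86.4 ± 3.30 FPKM with 2KR-MYB and 96.8 ± 3.32 FPKM with ANAA-MYB (SD, n = 3 each). NAE1 and UBA3 form the corresponding dimer for NEDD8, at 78.3 ± 5.28 and 32.2 ± 1.18 FPKM with 2KR-MYB and 90.8 ± 2.73 and 30.9 ± 0.860 FPKM with ANAA-MYB. The partners of the NEDD8 dimer thus stood further apart in level than SAE1 and UBA2 in both rescues. UBA6 and ATG7 had means of 30.1 and 28.6 FPKM over the 6 libraries, and UBA7, which activates the interferon-induced modifier ISG15, had 1.11 FPKM. Between the rescues 0 of these 6 genes passed 0.01 in limma, and UBA1 and NAE1 had an adjusted p of 0.041 and 0.028, both lower with 2KR-MYB. Over the alternative settings the limma adjusted p ran from 0.042 to 0.16 for UBA1 and from 0.016 to 0.091 for NAE1.

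**Figure D2:**
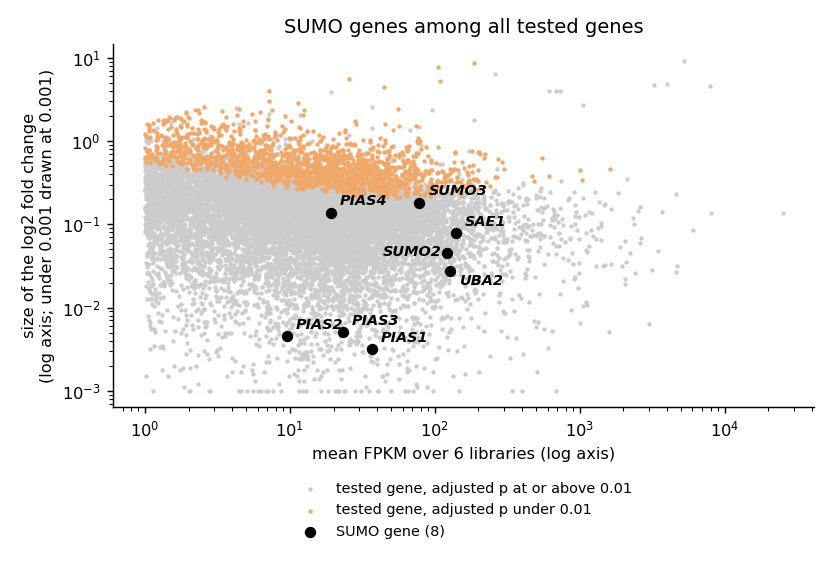
Mean FPKM over the 6 libraries and size of the log2 fold change between the rescues (both log axes) for the 12634 tested genes, with those past the adjusted p of 0.01 in orange. The 8 SUMO genes are in black, 0 of them passed, and PIAS1, PIAS2 and PIAS3 lie near the bottom, with sizes of 0.0032, 0.0046 and 0.0051.

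The PIAS ligases stood lower than the modifiers and the activating enzyme, and differed from each other more than between the rescues. In level they ordered as PIAS1, PIAS3, PIAS4 and PIAS2, with means over the 6 libraries of 36.6, 23.1, 19.2 and 9.50 FPKM, and each step of this order held in all 6 libraries with no overlap of the ranges. Over all 8 genes the order was SAE1, UBA2, SUMO2, SUMO3 and then the PIAS genes, from 140.0 down to 9.50 FPKM, which is a 14.7-fold range. Only the neighbours SAE1 and UBA2, and UBA2 and SUMO2, had ranges that overlapped. SAE1 stood at percentile 95.1 of tested genes by level and PIAS2 at percentile 40.7.

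PIAS1 (ENSG00000033800, chromosome 15, 68054315 to 68193847), a ligase for many nuclear proteins, stood at 35.9, 36.4 and 37.7 FPKM with 2KR-MYB and at 37.5, 35.9 and 36.3 FPKM with ANAA-MYB. The 6 libraries lay within a narrow range and the rescues overlapped. Its log2 fold change was 0.0032 (95% interval -0.10 to 0.11, limma adjusted p = 0.97), in size at percentile 1.31 of tested genes.

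PIAS3 (ENSG00000131788, chromosome 1, 145848522 to 145859081), named as an inhibitor of STAT3, had 21.2, 24.2 and 24.0 FPKM with 2KR-MYB and 24.9, 22.8 and 21.8 FPKM with ANAA-MYB. The first library was the lowest in one rescue and the highest in the other, and the rescues overlapped over most of their ranges. The difference was -0.0051 (95% interval -0.17 to 0.16, limma adjusted p = 0.97).

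PIAS2 (ENSG00000078043, chromosome 18, 46803218 to 46920145), the ligase also known as PIASx, amounted to 10.1, 8.48 and 9.88 FPKM with 2KR-MYB and to 8.84, 9.81 and 9.85 FPKM with ANAA-MYB. It had the largest spread between replicates of the 8 genes, with a within-rescue SD of 0.10 on the log2 scale. The difference was -0.0046 (95% interval -0.19 to 0.18, limma adjusted p = 0.97).

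PIAS4 (ENSG00000105229, chromosome 19, 4007736 to 4039386), the ligase also known as PIASy, had 18.7, 16.8 and 19.1 FPKM with 2KR-MYB and 20.9, 20.01 and 19.4 FPKM with ANAA-MYB. All 2KR-MYB libraries lay below all ANAA-MYB libraries, with the second 2KR-MYB library lowest. The log2 fold change was -0.14 (95% interval -0.28 to 0.0053, limma adjusted p = 0.14), and the exact two-sided permutation test gave p = 0.1 (n = 3 each).

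**Figure D3:**
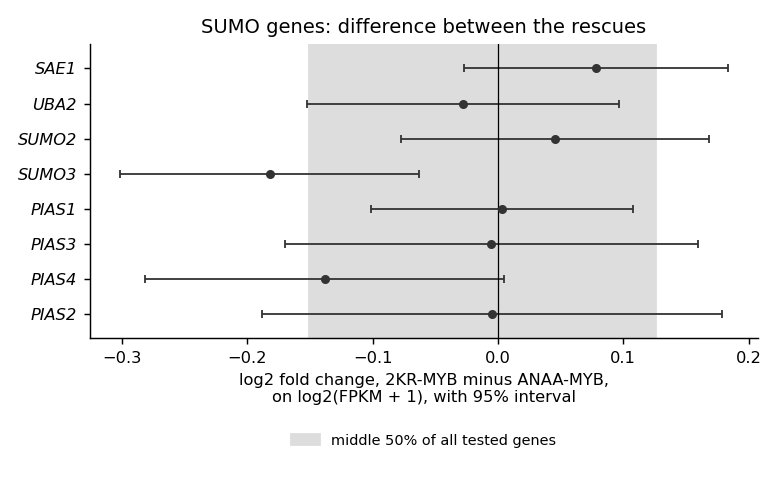
Log2 fold change of each SUMO gene with its 95% interval from limma, 2KR-MYB over ANAA-MYB, in the order of their level. SUMO3 (-0.18) lies outside the middle 50% of all tested genes (grey, -0.15 to 0.13) and its interval leaves out 0, while the other 7 intervals include 0.

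As a family, the PIAS transcripts summed to 87.4 ± 2.72 FPKM with 2KR-MYB and 89.3 ± 2.45 FPKM with ANAA-MYB (SD, n = 3 each). PIAS1 gave 41.9 ± 0.410% of the sum with 2KR-MYB and 40.9 ± 0.546% with ANAA-MYB. PIAS4 gave 20.8 ± 1.14% and 22.5 ± 0.217%. For both genes the libraries lay apart, PIAS1 higher and PIAS4 lower with 2KR-MYB, by 0.997 and 1.69 percentage points. The exact two-sided permutation test (n = 3 each) gave p = 0.1, the smallest possible, for PIAS1 and for PIAS4 alike. After Benjamini-Hochberg adjustment over the 4 genes it was 0.2 for each of them. The shares of PIAS3 (26.4 ± 1.76% and 25.9 ± 1.06%) and PIAS2 (10.8 ± 0.940% and 10.7 ± 0.915%) overlapped between the rescues. The coding sequences of the PIAS genes matched at 64.4% to 68.7% of aligned positions and shared runs of at most 17 bases, less than SUMO2 and SUMO3.

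**Figure D4:**
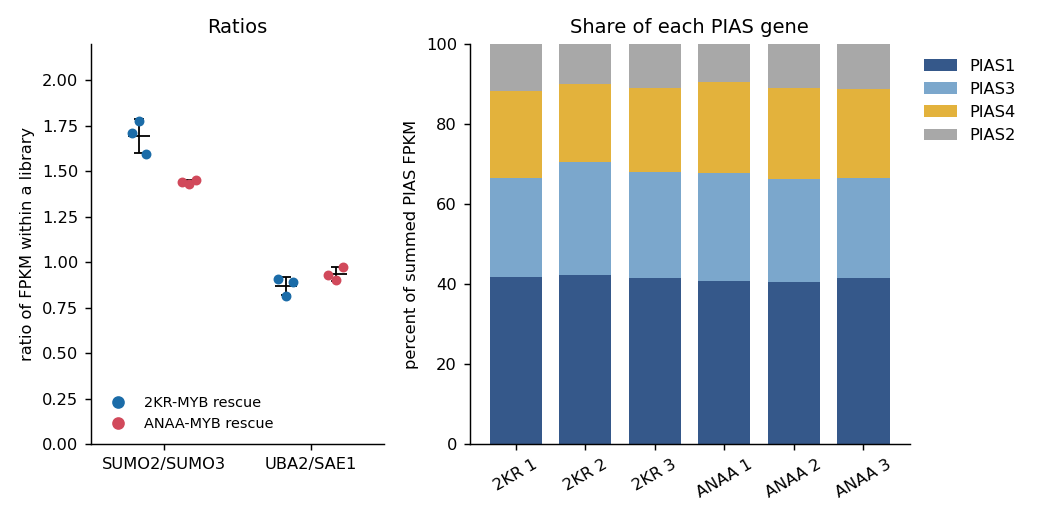
Left, ratios of FPKM within each library, with the mean and 1 SD of 3 libraries per rescue, where the SUMO2 to SUMO3 ratio is 1.59 to 1.78 with 2KR-MYB and 1.43 to 1.45 with ANAA-MYB and the UBA2 to SAE1 ratios overlap. Right, the share (percent) of each PIAS gene in the summed PIAS FPKM of each library, where PIAS1 makes up 40.5% to 42.4% in every library.

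The SUMO genes lie on 6 chromosomes. Since each rescue was 1 clone, the 10 nearest tested genes on either side of each SUMO gene were described as well. Their median log2 fold change was -0.12 around SUMO3, where 14 of the 20 neighbours were lower with 2KR-MYB and 2 passed the threshold of 0.01 in each direction. It was -0.061 around PIAS4, with 13 of 20 lower and 1 past the threshold. It was 0.17 around PIAS3, where 18 of 20 were higher and 3 passed. Around the other 5 genes the medians lay between -0.027 and 0.075, and the median of all tested genes was -0.015. Of 20 neighbours each, 5 passed around UBA2, 4 around PIAS2, 1 around SAE1, 1 around PIAS1 and 0 around SUMO2. Of all 12634 tested genes, 13.0% passed and 6720 were lower with 2KR-MYB. The part of the neighbourhood in the values of SUMO3 and PIAS4 was not tested.

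MYB recognises a short DNA core, searched here as the word TAACTG and its variant TAACGG, and likewise as the word CAACTG and its variant CAACGG. RefSeq promoters of GRCh38 (250 bases before to 50 after a start) were held for 7 of the 8 genes, 9 promoters in all. At least 1 of these words, on either strand, occurred in 5 of the 9 promoters, of 4 genes (SUMO3, PIAS1, PIAS2 and PIAS3), and in 25.7% of the 35116 promoters in the table. SUMO3, the gene with the largest difference among the 8, held 2 matches. They are shown with their surroundings and the match in capitals, on the strand of the gene (minus), at chr21:44818089-44818118 and chr21:44818044-44818073.
SUMO3, 44 bases before the start: ccccgtgccggcCAACGGgtgcgccgggat
SUMO3, at the start: cggccccgcgcaCAGTTGcggcgggagagc
CAGTTG is CAACTG read on the other strand. The promoter of PIAS1 held the word TAACTG at chr15:68054091-68054120 (plus strand): ccgagggggcagTAACTGtcaaacctcgcc. No binding was measured in these libraries, so the matches describe the letters alone.

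Beyond the 8 genes, 37 genes of the SUMO pathway were followed, 34 of them other E3 ligases and cofactors, proteases, and proteins that bind SUMO. Of these, 36 were tested, 0 passed 0.01 (limma) and 5 had an adjusted p under 0.05, against 13.0% and 26.9% of all tested genes. An unadjusted p under 0.05 was found for 12 of the 36 (33.3%), against 39.4% of all tested genes. Their median log2 fold change was -0.019 and the largest in size was 0.27. In 14 of the 36 (38.9%) the libraries of the rescues lay apart, against 44.9% of all tested genes.

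The 14 other E3 ligases and cofactors were split evenly, 7 higher and 7 lower with 2KR-MYB. ZNF451, a ligase that extends SUMO2 and SUMO3 chains, reached 20.6, 21.0 and 20.5 FPKM with 2KR-MYB and 17.2, 16.4 and 18.3 FPKM with ANAA-MYB. The libraries of the rescues did not overlap, and its difference was 0.25 on the log2 scale (standard error 0.056, limma adjusted p = 0.014). It passed 0.01 after upper quartile scaling and after quantile normalization (adjusted p of 0.0058 and 0.0068, with a range of 0.0058 to 0.049 over the alternatives). TRIM28, a corepressor with ligase activity, was the most abundant of the group, with a mean of 202 FPKM over the 6 libraries and a log2 fold change of -0.12. RANBP2 and RANGAP1, which act together at the nuclear pore, had log2 fold changes of 0.0092 and 0.10.

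Among the 10 genes of the protease group, 3 were higher and 7 lower with 2KR-MYB. DESI2, of the DeSI proteases, had 31.2, 31.6 and 32.9 FPKM with 2KR-MYB and 36.6, 38.1 and 41.7 FPKM with ANAA-MYB. The libraries of the rescues lay apart, the difference was -0.27 on the log2 scale (SE 0.059, limma adjusted p = 0.012), and DESI2 passed 0.01 (adjusted p = 0.0099) when genes under 5 FPKM were left out, with a range of 0.0099 to 0.042 over the alternatives. SENP1, a protease that removes SUMO from targets (log2 fold change 0.15, limma adjusted p = 0.084), and UXT, a prefoldin-like chaperone (-0.085, adjusted p = 0.44), did not pass. The libraries of the rescues lay apart for SENP1, with adjusted p from 0.029 to 0.23 over the alternatives. For UXT it ran from 0.035 to 0.80, and the difference was -0.18 without the third ANAA-MYB library and -0.033 without the first.

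Of the 10 SUMO binders, 3 had an adjusted p under 0.05, a share near the 26.9% of all tested genes. SETDB1, a histone H3 lysine 9 methyltransferase, had 26.5 ± 2.03 FPKM with 2KR-MYB and 22.0 ± 0.952 FPKM with ANAA-MYB (SD, n = 3 each, log2 fold change 0.26, limma adjusted p = 0.025). It passed 0.01 after upper quartile scaling and after quantile normalization (0.0081 and 0.0098, with a range of 0.0081 to 0.081 over the alternatives). RNF4, a ubiquitin ligase that recognises SUMO chains, was at 29.0 ± 1.24 and 33.4 ± 1.95 FPKM (-0.20, limma adjusted p = 0.041). DAXX, a histone chaperone, was at 39.9 ± 1.15 and 44.7 ± 1.49 FPKM (-0.16, limma adjusted p = 0.038). Over the alternatives the limma adjusted p ran from 0.031 to 0.13 for RNF4 and from 0.037 to 0.12 for DAXX. For SETDB1, RNF4 and DAXX the libraries of the rescues did not overlap. PML, the scaffold of nuclear bodies, had 14.8 to 16.9 FPKM with 2KR-MYB and 16.9 to 17.8 FPKM with ANAA-MYB, without overlap, and its difference (-0.12, limma adjusted p = 0.19) did not pass.

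**Figure D5:**
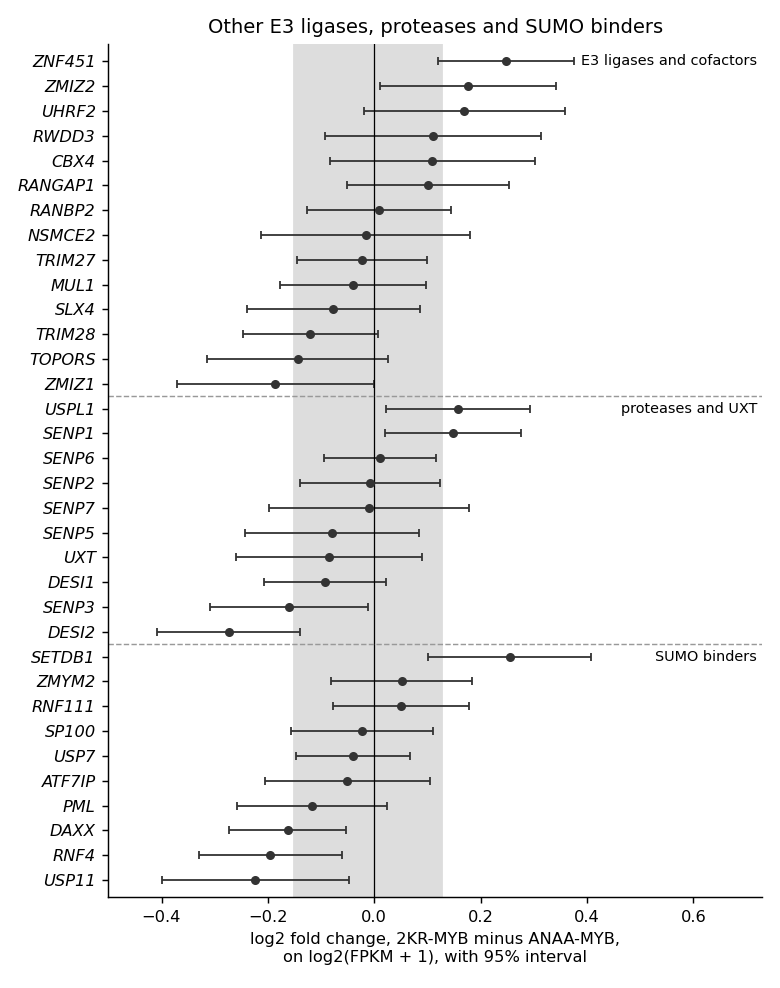
Log2 fold change (2KR-MYB over ANAA-MYB) of 34 other genes of the SUMO pathway, with 95% intervals from limma, in 3 groups separated by dashed lines and sorted by value within a group. The outermost values are those of DESI2 (-0.27) and SETDB1 (0.26), and grey marks the middle 50% of all tested genes (-0.15 to 0.13).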

How the data were processed

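RNA of K562 clones was measured in 6 samples, and strand-specific poly(A) libraries were read as 150 bp pairs. According to the submitters' processing notes the authors used bcl2fastq 2.18.0.12, Trimmomatic 0.36, TopHat2 2.1.1, Cufflinks and Cuffdiff 2.2.1 on GRCh38. The deposited unit is FPKM by gene, 1 column for each replicate. Which annotation was used, and how libraries were scaled, is not given in the sources used here. The depth cannot be read from the values: among values under 0.5 FPKM, at most 7.40% of ratios between libraries fell within 1% of one ratio, so no reads were recovered. Of the columns, 12 were not used.

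Values were transformed to log2(FPKM + 1), and the 12634 genes whose mean over all 6 libraries reached 1 FPKM were fitted by limma (3.58.1, R 4.3.3) with the rescue as the factor, moderated variances with a trend and Benjamini-Hochberg adjustment. The threshold of 0.01 is that of the study. This scale understates changes of low genes. Ratios and shares were compared by exact two-sided permutation tests. The labels do not say that replicates were separate cultures beyond calling them biological replicates, and no 2 libraries held identical values.

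The genes, lists and tests were chosen with earlier results of these data known. Genes named are the 8 SUMO genes, MYB, SENP1, UXT, other activating enzymes and, had any passed, pathway genes past the threshold. Pathway genes under 0.05, TRIM28, RANBP2, RANGAP1, PML and the erythroid markers were named after their values were seen. Symbols matched 55854 of 58288 identifiers. Positions are from RefSeq (GRCh38), promoters from the RefSeq table, and coding sequences from GENCODE transcripts on GRCh37, from which no coordinates were taken. Some genes of the lists are not reported here by name. The limma step was tested on simulated data. The alternatives were a pseudocount of 0.1, quantile normalization, upper quartile scaling, no filter, a filter at 5 FPKM, a replicate block, each library left out in turn and a threshold of 0.05. Figures were drawn with Python 3.11.15 and matplotlib 3.10.9.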

Additional observations from a re-analysis of the deposited data

How the results depend on the processing

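The number of the 8 SUMO genes past the threshold was 0 in every fit at 0.01, including each of the 6 fits without one library, and 1 (SUMO3) at 0.05. For the 36 other pathway genes it was 0 with any library left out, 1 at a mean of at least 5 FPKM (DESI2), 2 after upper quartile scaling and 2 after quantile normalization (ZNF451 and SETDB1 in both), and 5 at 0.05. SUMO2, SUMO3, SAE1 and PIAS4 kept their direction under all 12 alternatives each. Scaling turned the sign of 3 differences close to 0: UBA2 stood at 0.016 after upper quartile scaling and 0.019 after quantile normalization, PIAS2 at 0.035 and 0.0077, and PIAS3 at 0.037 and 0.023. Across the 6 fits that each omit one library, the log2 fold change ran from 0.022 to 0.086 for SUMO2, -0.21 to -0.14 for SUMO3, 0.054 to 0.096 for SAE1, -0.057 to 0.020 for UBA2, -0.016 to 0.021 for PIAS1, -0.051 to 0.067 for PIAS2, -0.047 to 0.054 for PIAS3 and -0.17 to -0.085 for PIAS4. SUMO2 was lowest without the third ANAA-MYB library and highest without the second ANAA-MYB library, and PIAS4 was smallest in size without the second 2KR-MYB library. The difference in the share of PIAS2 ran from -0.330 to 0.680 percentage points and that of PIAS3 from -0.375 to 1.39, both across 0, that of PIAS1 from 0.766 to 1.31 and that of PIAS4 from -2.19 to -1.07. The difference in the log2 ratio of SUMO2 to SUMO3 ran from 0.20 to 0.27 and that of UBA2 to SAE1 from -0.14 to -0.059. The cause of these shifts was not tested.

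Replicate numbers did not pair the libraries, since deviations of same-numbered libraries from their group means had r of -0.052, -0.035 and -0.003 and no library correlated best with its own number. With the replicate number as a block, 1089 of all tested genes passed in place of 1642, and the number of SUMO genes past the threshold was 0. Without a filter 942 of 28536 genes passed. Between 852 and 1045 passed when any library but the third of 2KR-MYB was left out, and 1204 without that one. The share of such genes with higher levels under 2KR-MYB was 42.9%, and 54.5% after upper quartile scaling. With 3 libraries a rescue, 1 clone each and unknown depth, differences inside the intervals given for the SUMO genes could not be resolved.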
